A study of Mus musculus with 40 samples.

Results

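The 10 genes described here are known targets of the tumour suppressor p53, and were followed across the livers of 40 mice. They are Bbc3, Pmaip1, Bax, Trp53inp1, Cdkn1a, Ccng1, Gadd45a, Gadd45b, Mdm2 and Sesn1. They were matched by symbol, all 10 were found among the 40594 genes of both count tables, and all 10 were among the 12942 genes that passed the filter on low counts. The set was built around Bbc3, whose level in KO mice given Pio had drawn attention in these same data, and the other 9 were added as textbook targets of p53 with results of these data known. The values of Bbc3, and those of every comparison that uses the KO Pio mice, are therefore given as a description without a p-value. Where members that pass a threshold are counted in such comparisons, the count describes the fit and tests nothing about the set.

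The mice were male and received their diets from 2 to 5 months of age, with 5 mice in each of 8 groups. Wildtype (WT) C57BL6/J mice received a low-fat control diet (WT control), that diet with 0.01% pioglitazone (WT Pio), a high-fat diet with 60% of its calories from fat (WT HFD), or the high-fat diet with pioglitazone (WT HFD-Pio). Pioglitazone (Pio) is a thiazolidinedione drug that activates the nuclear receptor PPARγ. The same 4 diets went to mice in which PPARγ-loxP alleles were deleted by Cre under the albumin promoter (KO control, KO Pio, KO HFD and KO HFD-Pio), so the deletion is meant for hepatocytes and other liver cells keep the receptor. WT mice were bought and not littermates of the KO mice, and the counts of the genotypes stand in separate tables, so WT and KO levels were not tested against each other. A difference in the size of the Pio effect between genotypes was tested. Poly-A RNA of whole liver was sequenced, and a change can come from fewer cells of a type or from less RNA per cell, which cannot be told apart in such samples.

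p53 is a transcription factor that DNA damage and other stresses stabilise. Some of its targets kill the cell, through BH3-only proteins such as PUMA and NOXA and the pore former BAX. Others arrest the cell cycle and act in DNA repair, through p21, cyclin G1 and the GADD45 proteins. MDM2, itself a target, marks p53 for destruction and closes a feedback loop. Several targets also act in metabolism and redox control, and most respond to other transcription factors as well, so their RNA levels are not a measure of p53 activity alone.

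PUMA is the product of Bbc3 (chr7:16308393-16318205 in GRCm38), and NOXA that of Pmaip1. Bax lies at chr7:45461697-45466898, and Trp53inp1, whose product promotes cell death and autophagy, at chr4:11156431-11174379. The arrest and repair genes are Cdkn1a, which codes for p21 (chr17:29090976-29100727), Ccng1 for cyclin G1 (chr11:40748552-40755311), Gadd45a (chr6:67035096-67037457) and Gadd45b (chr10:80930073-80932204). Mdm2 lies at chr10:117688875-117710758, and Sesn1, whose product sestrin 1 restrains mTORC1 signalling, at chr10:41809935-41908424. In the GENCODE M21 annotation Bax overlaps Gm45808 on the same strand, Sesn1 overlaps 9930024M15Rik on the same strand, and Cdkn1a and Gadd45a overlap AC167363.2 and E230016M11Rik on the opposite strand. Ambiguous reads were not counted, and the sources used here do not say whether strand was used, so these 4 genes are uncertain where they share sequence with a neighbour.

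RefSeq promoter windows of GRCm38.p6, from 250 bases before to 50 after a start, were held for 8 of the 10 genes. They were searched for the p53 half-site, the 10-base palindrome to which 1 dimer of p53 binds, so that 1 strand stands for both. A half-site was found in 6 of the 12 windows of these genes, which belong to 6 of the 8 genes, and in 8.36% of all 32851 windows. A pair of half-sites at most 13 bases apart, the full p53 site, was found in Cdkn1a alone among the members and in 0.0731% of all windows. The sequences are shown because they mark which members carry the letters that p53 reads beside a start. Capitals mark the half-site, and each is written 5′ to 3′ on the strand of its gene.
Cdkn1a, first half-site (chr17:29090896-29090925, plus strand): tcctgggtggGGACTAGCTTtctggccttc
Cdkn1a, second half-site (chr17:29090918-29090947, plus strand): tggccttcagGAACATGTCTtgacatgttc
Mdm2 (chr10:117710925-117710954, minus strand): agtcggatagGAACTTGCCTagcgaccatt
Ccng1 (chr11:40755452-40755481, minus strand): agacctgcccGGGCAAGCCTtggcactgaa
Bax (chr7:45467080-45467109, minus strand): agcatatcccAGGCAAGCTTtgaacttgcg
Gadd45a (chr6:67037428-67037457, minus strand): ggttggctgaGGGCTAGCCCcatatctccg
Sesn1 (chr10:41887256-41887285, plus strand): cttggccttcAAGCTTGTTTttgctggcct

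Distances here are from the RefSeq start of each window, which need not be the GENCODE gene end given above. The half-sites begin from 201 bases before that start in Bax to 40 in Gadd45a, and those of Cdkn1a begin 73 and 51 bases before it. The stretch shown for Gadd45a lies inside the GENCODE gene, and that of Sesn1 stands before a start within the gene, 1 of the 2 windows of Sesn1. The 3 windows of Bbc3 and the window of Gadd45b held no half-site, which says only that these letters are not in those windows. The direct repeat of AGGTCA with 1 base between its copies, the consensus for PPARγ with its partner RXR, was searched on both strands and was found in 0 member windows and in 0.0396% of all windows. It shares no bases with the p53 half-sites shown. A match is a description of sequence and not a bound site.

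Library sizes were 15788242 to 49857017 counts in WT and 21542958 to 28334251 in KO mice. The library labelled KO Pio mouse 13 stood apart, with a median Spearman correlation of 0.773 to the other 19 KO mice, against 0.957 to 0.991 for those. Its 8 hepatocyte markers summed to 36800 CPM (counts scaled to the size of the library), against 100000 to 130000 in the other 4 KO Pio mice, and its 6 stellate cell markers to 563 CPM, against 244 to 316. The lowest WT value was 0.936, in WT control mouse 832, whose hepatocyte markers summed to 74300 CPM, the lowest of its group. All 8 hepatocyte markers were detected in every group, as the label liver requires. Pparg, the gene targeted in KO mice, had 5.79 to 14.2 CPM in WT and 3.01 to 9.90 CPM in KO mice, and these ranges overlapped. A count over the whole gene includes reads from outside the deleted part and from cells without Cre, so it does not check the deletion.

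**Figure D1:**
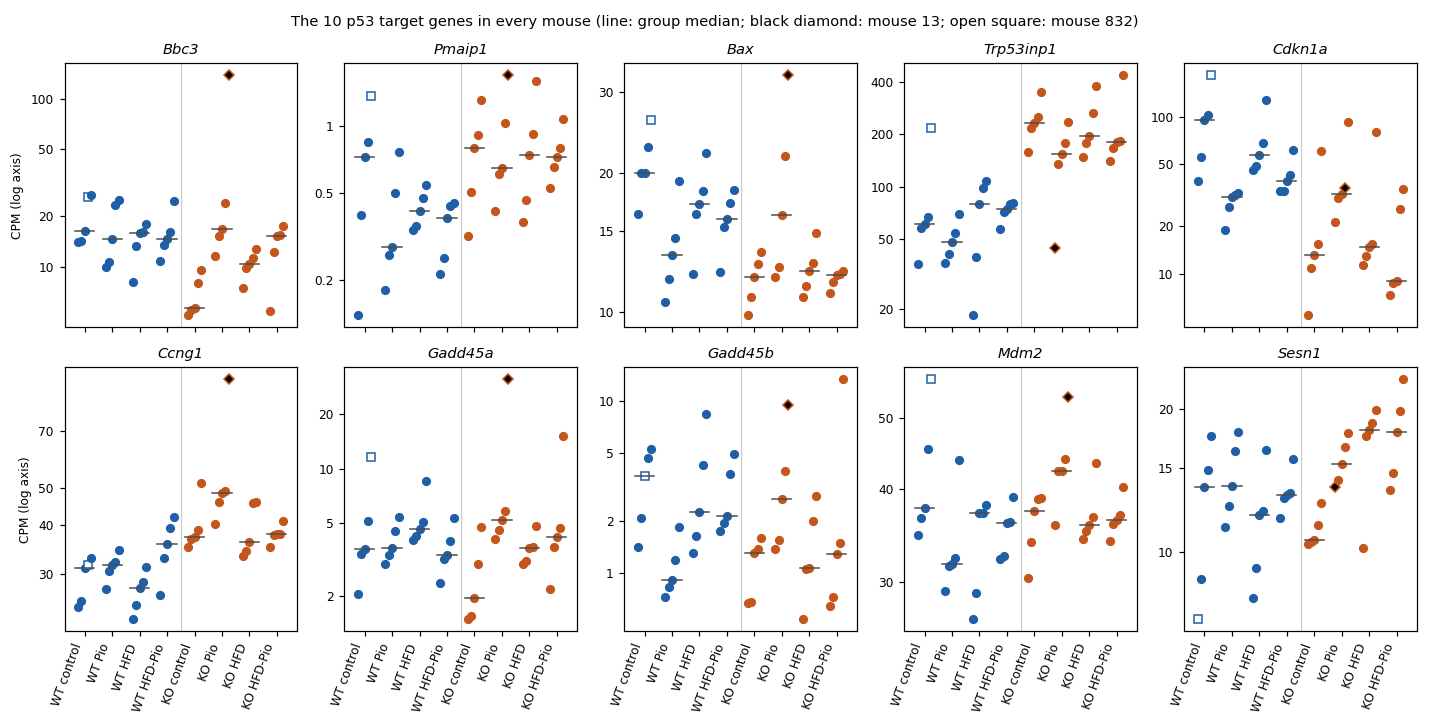
Level of each of the 10 genes in CPM (log axis) in each of the 40 mice, WT groups in blue and KO groups in orange, with a line at the group median; mouse 13 is a black diamond and mouse 832 an open square. Bbc3 of the KO Pio mice lies above that of the KO control mice, and Cdkn1a of the WT Pio mice lies below that of the WT control mice.

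Expressed per kilobase of exon (RPKM), which allows levels of different genes to be set side by side, the members differed widely. In WT mice the median was highest for Cdkn1a, with 12.5 RPKM over 20 mice, followed by Bax with 10.6, Trp53inp1 with 9.91, Ccng1 with 8.84, Bbc3 with 7.21 and Mdm2 with 7.10. Sesn1 had 3.29 RPKM, Gadd45a 2.28, Gadd45b 1.27 and Pmaip1 0.148. The ranges of neighbours in this order overlapped over the 20 mice, except that the highest Sesn1 value, 4.49 RPKM, was below the lowest of Mdm2, 5.26. In KO mice Trp53inp1 had the highest median, 28.2 RPKM, and Pmaip1 again the lowest, 0.268. Within a genotype the steadiest genes were Ccng1 in WT, with a 1.83-fold range, and Mdm2 in KO, with a 1.75-fold range. The widest were Trp53inp1 in WT, 11.9-fold, and Bbc3 in KO, 26.7-fold.

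Bbc3 was low in KO control mice, with 5.16, 5.52, 5.67, 7.99 and 9.58 CPM. In KO Pio mice it was 11.6, 15.2, 16.7 and 24.0 CPM, and 138 CPM in mouse 13. Every KO Pio mouse was thus above every KO control mouse, with or without mouse 13. KO HFD mice had 7.48 to 12.8 CPM and KO HFD-Pio mice 5.49 to 17.6 CPM, ranges that overlapped each other and those of both other KO groups. In WT mice the groups overlapped throughout, with 14.1 to 26.8 CPM in WT control, 9.93 to 25.0 in WT Pio, 8.15 to 18.1 in WT HFD and 10.9 to 24.8 in WT HFD-Pio.

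On the log2 scale of the fit, the difference of Bbc3 for Pio on control diet in KO mice was 2.59 (SE 0.46), or 6.04-fold. Without mouse 13 the value was 1.33 (SE 0.30). HFD in KO mice given Pio gave −1.63 (SE 0.44), and −0.36 (SE 0.30) without mouse 13, so that this decrease rested on that animal. HFD without Pio gave 0.60 (SE 0.44) and Pio on HFD 0.36 (SE 0.44) in KO mice. In WT mice the 4 differences were between −0.44 and 0.16, each with an SE of 0.43 or 0.44. These are the values through which Bbc3 was chosen, and nothing is read from them beyond their size.

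The other cell death genes, Bax, Pmaip1 and Trp53inp1, overlapped between KO control and KO Pio mice. Bax was 9.84, 10.8, 11.9, 12.7 and 13.5 CPM in KO control mice, and 11.9, 12.5, 16.2, 21.8 and, in mouse 13, 32.6 CPM in KO Pio mice. The groups overlapped, with 3 of 5 KO Pio mice above all controls. Its log2 difference was 0.69 (SE 0.20), and 0.43 (SE 0.17) without mouse 13. Pmaip1 was 0.317 to 1.32 CPM in KO control and 0.412 to 1.71 CPM in KO Pio mice, with a log2 difference of 0.19 (SE 0.44) and −0.18 (SE 0.45) without mouse 13. Trp53inp1 ran the other way in mouse 13, which held 44.5 CPM, the lowest value of the 20 KO mice, against 136 to 237 CPM in the other KO Pio mice and 159 to 352 CPM in KO controls.

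The arrest and repair genes of KO Pio mice were likewise led by single animals. Cdkn1a was 5.44, 10.9, 13.1, 15.4 and 60.2 CPM in KO control mice and 21.3, 30.2, 32.2, 35.2 and 92.8 CPM in KO Pio mice. The high control was mouse 5 and the high treated animal mouse 12, not mouse 13, which held 35.2 CPM. Without mouse 5 the KO groups would not overlap, and with it the log2 difference was 1.01 (SE 0.55). Gadd45a was 1.48 to 4.81 CPM in KO control and 4.08, 4.63, 5.24, 5.85 and 31.3 CPM in KO Pio mice, the last in mouse 13. Its log2 difference was 2.00 (SE 0.50), or 0.97 (SE 0.42) without mouse 13. Gadd45b gave 1.74 (SE 0.65) and 1.09 (SE 0.66), and Ccng1 0.48 (SE 0.16) and 0.22 (SE 0.13), in the same order.

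The feedback and metabolic genes differed by less. Mdm2 was 30.4 to 39.0 CPM in KO control and 35.8 to 53.3 CPM in KO Pio mice, a log2 difference of 0.28 (SE 0.13). Sesn1 was 10.4, 10.5, 10.6, 11.4 and 12.7 CPM in KO control mice and 13.7, 14.2, 15.3, 16.6 and 17.8 CPM in KO Pio mice. As with Bbc3, every KO Pio mouse was above every KO control mouse, and here mouse 13 was the lowest of the 5 at 13.7 CPM. The log2 difference of Sesn1 was 0.48 (SE 0.20), and 0.54 (SE 0.20) without mouse 13.

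In all, 3 of the 10 members passed an adjusted p of at most 0.05 for Pio on control diet in KO mice, namely Bbc3, Bax and Gadd45a, all of them higher, against 9.01% of the 12942 genes. Without mouse 13 only Bbc3 of the members passed, against 0.510% of all genes. Groups did not overlap for 2 members, Bbc3 and Sesn1, against 3.70% of all genes with mouse 13 and 7.00% without it. The count called fell to 1 also without KO control mouse 1 or mouse 3, and rose to 5 without KO control mouse 5, KO Pio mouse 14 or KO Pio mouse 15. The set was chosen on this contrast, and nothing is read from these counts. Besides the hepatocyte and stellate cell markers given above, those of 4 more cell types lay outside the other 4 KO Pio mice in mouse 13. Its cholangiocyte markers summed to 83.6 CPM against 40.3 to 49.2, its endothelial markers to 196 against 259 to 312, its neutrophil markers to 3.30 against 10.9 to 15.8 and its lymphocyte markers to 1.10 against 2.09 to 5.57 CPM. Such sums follow their most abundant genes. By medians over all mice these were Spp1 (26.7 CPM) and Sox9 (15.8 CPM) among the cholangiocyte markers and Ecm1 (159 CPM) among the stellate cell markers. No lymphocyte marker had a median above 0.933 CPM. The part of these marker differences in the values of mouse 13 was not tested.

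**Figure D2:**
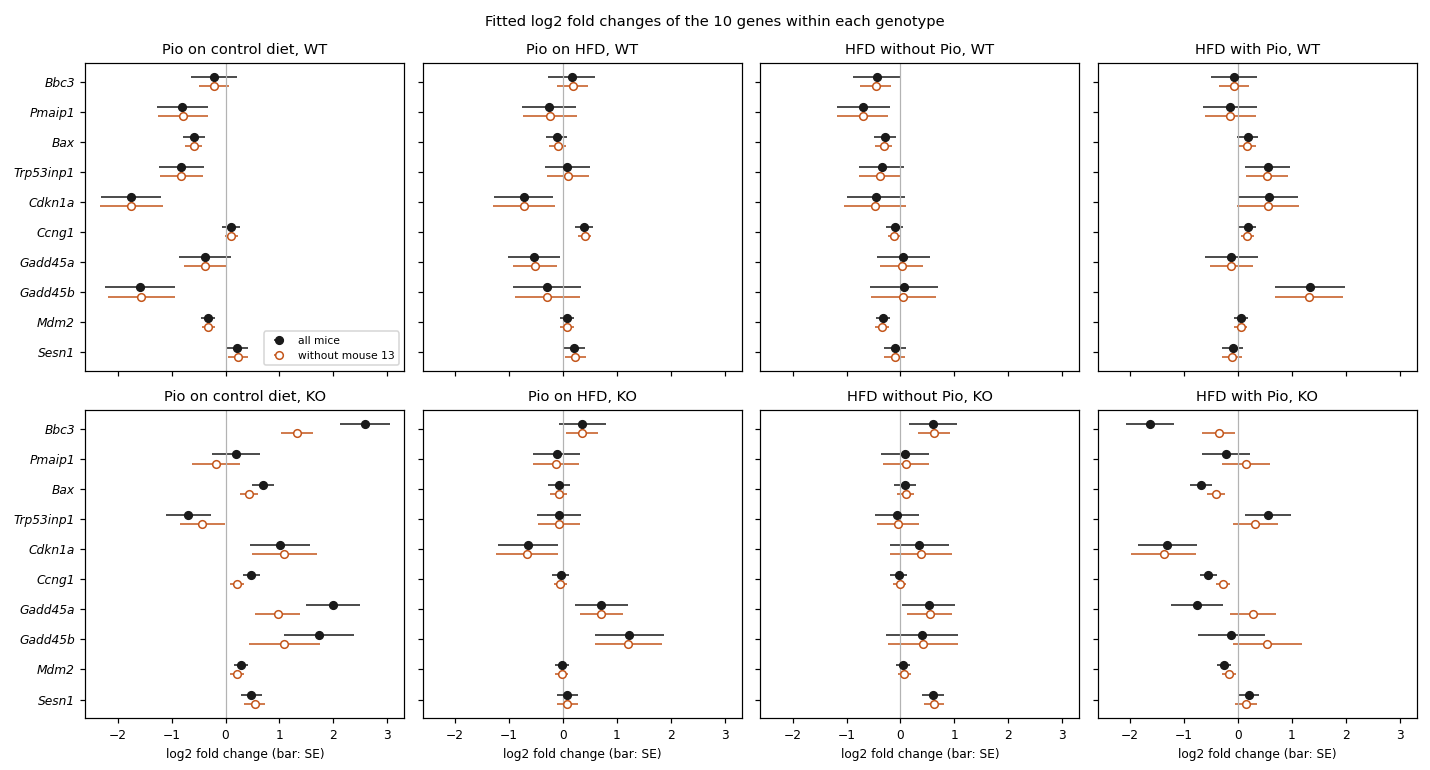
Fitted log2 fold change (x axis) of each of the 10 genes (y axis) with its SE as a bar, for 4 comparisons in WT (top) and 4 in KO mice (bottom), from all mice (black) and without mouse 13 (open orange). In KO mice Bbc3 moves from 2.59 to 1.33 for Pio on control diet when mouse 13 is left out, and the WT values hardly move.

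In WT mice Pio on control diet was tested for the same genes, and Cdkn1a showed the clearest pattern. WT control mice held 38.8, 55.7, 95.4, 102 and 184 CPM of Cdkn1a. WT Pio mice held 19.1, 26.7, 30.7, 31.5 and 32.8 CPM. Every WT Pio mouse was below every WT control mouse, which gives a two-sided exact permutation p of 0.00794, the smallest that 5 against 5 mice allow. The log2 difference was −1.76 (SE 0.56), and its p-value from the edgeR quasi-likelihood fit, Benjamini-Hochberg adjusted over all genes, was 0.0663. That adjusted p was 0.0373 without mouse 13 and ran from 0.00379 to 0.207 over the 46 other settings, the highest without WT control mouse 832.

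Bax, at 16.3 to 26.0 CPM in WT control and 10.5 to 19.2 CPM in WT Pio mice, differed by −0.59 (SE 0.20). Its adjusted p in the same edgeR test was 0.0777, and 0.012 without mouse 13, with 0.00116 to 0.246 over all other settings. Gadd45b was 1.42, 2.08, 3.65, 4.67 and 5.26 CPM in WT control and 0.733, 0.832, 0.918, 1.20 and 1.86 CPM in WT Pio mice. The groups overlapped by 1 mouse, and the log2 difference of −1.58 (SE 0.65) had an adjusted p of 0.179 in edgeR. Mdm2 gave −0.33 (SE 0.13) and Trp53inp1 −0.82 (SE 0.42), and neither passed in edgeR. Mdm2 had an adjusted p of 0.013 by limma with sample weights, and its edgeR value was −0.18 without WT control mouse 832. The value of Trp53inp1 rested on WT control mouse 832, which held 218 CPM against 35.9 to 67.1 CPM in the other 4 controls, and without it was −0.14. Ccng1 and Sesn1 differed by 0.10 (SE 0.16) and 0.21 (SE 0.20), and Pmaip1 and Gadd45a by −0.80 (SE 0.47) and −0.38 (SE 0.49). The sign of the last pair was not stable, with Gadd45a at 0.17 without mouse 832 and Pmaip1 at 0.32 by limma.

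By edgeR, 0 of the 10 members were called for Pio on control diet in WT mice, against 3.91% of all genes, and 4 had an unadjusted p under 0.05, against 17.9% of all genes. DESeq2 called 1 and limma with sample weights 3. Without mouse 13, whose spread enters the shared fit although it is a KO animal, edgeR called 2 members, Cdkn1a and Bax, both lower, against 15.5% of all genes. That is close to the share of all genes. The count was 1 without WT control mouse 835, WT Pio mouse 841, KO control mouse 5 or KO HFD mouse 9. Groups did not overlap for 1 member, Cdkn1a, against 7.53% of all genes. In the same mice the 6 adipocyte markers summed to 74.6 to 524 CPM in WT Pio and 8.65 to 14.1 CPM in WT control mice, and several of them are known PPARγ targets. Over all mice Cfd reached 496 CPM and Fabp4 194 CPM, while Adipoq, Lep, Plin1 and Retn reached 0.669, 0.162, 2.28 and 4.83 CPM. The sum therefore follows Cfd and Fabp4, which the paper reported as induced by Pio in WT but not KO liver on control diet. Hepatocyte markers overlapped, at 80500 to 138000 and 74300 to 128000 CPM. The part of these differences in the values of Cdkn1a was not tested.

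Of the 42 tested genes of a list of other known p53 targets, edgeR called 2 for Pio on control diet in WT mice, or 4.76%, near the 3.91% of all genes. Ddit4, a stress-induced inhibitor of mTORC1, fell by 1.79 on the log2 scale (SE 0.46, edgeR adjusted p 0.0198), and Pank1, a kinase of coenzyme A synthesis, rose by 0.76 (SE 0.22, edgeR adjusted p 0.0389). The median of the list was −0.13, against −0.02 for all genes. Pank1 was not called without mouse 832 (0.61, edgeR adjusted p 0.0964). Without mouse 13, 9 were called, or 21.4% against the 15.5% of all genes in that fit, 7 of them lower, with Ddit4 lowest, then Eda2r, a death receptor gene, at −1.58 and Gtse1 at −1.16. Both were low, with means of 1.7 (SD 1.77) and 1.6 (SD 1.21) CPM in WT control mice. With mouse 832 left out and mouse 13 kept they were −0.67 and −0.57, and neither was called.

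Ddit4 responds to ATF4 as well as to p53. Of 14 ATF4 and CHOP targets 6 were called in WT Pio mice, 5 of them lower, and 42.9% stands against 3.91% of all genes. Fgf21, a hepatic stress hormone, differed by −3.01 (SE 0.55), Atf3 by −3.08 (SE 0.73) and Psat1, of serine synthesis, by −2.16 (SE 0.58), while Vldlr, a lipoprotein receptor, differed by 1.75 (SE 0.43). All 4 passed edgeR's adjusted threshold. WT control mouse 832 held the highest value of its group for 10 of the 14 targets. Without it 3 were called, Ddit4 at −1.66, Fgf21 at −2.61 and Vldlr at 1.98, against 3.18% of all genes, and Atf3 at −1.12 and Psat1 at −1.26 were not.

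On HFD, Pio gave no call among the members in WT mice. Cdkn1a was 46.0 to 128 CPM in WT HFD and 33.4 to 61.0 CPM in WT HFD-Pio mice, which overlapped, with a log2 difference of −0.73 (SE 0.55, edgeR adjusted p 0.547). Ccng1 was 22.9 to 31.2 CPM in WT HFD and 26.5, 32.9, 35.8, 39.3 and 42.0 CPM in WT HFD-Pio mice, with 4 of 5 mice above every WT HFD mouse. It differed by 0.39 (SE 0.16), with an adjusted p in edgeR of 0.245, and of 0.0297 without mouse 13, and ran from 0.0247 to 0.482 over the other settings. By edgeR 0 of the 10 members were called on HFD against 1.08% of all genes, 1 had an unadjusted p under 0.05, against 15.6% of all genes, and DESeq2 and limma also called 0. Without mouse 13 the call of Ccng1 made it 1, against 11.6% of all genes. Groups did not overlap for 0 members, against 7.12% of all genes.

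Whether Pio acted differently on the 2 diets was tested as an interaction. In WT mice 0 of the 10 members passed, against 0.0773% of all genes, with 1 at an unadjusted p under 0.05, against 12.1% of all genes, and the difference for Cdkn1a was 1.02 (SE 0.77, edgeR adjusted p 0.629). In KO mice, where the difference uses the KO Pio mice and is a description, 0 members passed, against 0% of all genes, and 4 had an unadjusted p under 0.05 in edgeR, against 12.1% of all genes. DESeq2 and limma called the same number of members, 0, for these differences. The value for Bbc3 in KO mice was −2.24 (SE 0.62), and −0.98 (SE 0.42) without mouse 13.

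For HFD without Pio in WT mice edgeR called 0 of the 10 members, against 1.31% of all genes, and 0 against 6.56% without mouse 13. Of the members 1, Mdm2, had an unadjusted p under 0.05, against 13.2% of all genes, with a log2 difference of −0.33 (SE 0.13) that was −0.21 without WT control mouse 832. Neither DESeq2 nor limma called a member, and groups did not overlap for 0 members, against 3.05% of all genes. Of the 42 other p53 targets 1 was called with all mice, or 2.38%, Ddit4 with a log2 difference of −1.92 (SE 0.46). Without mouse 13 there were 6, or 14.3% against the 6.56% of all genes, with Ddit4 (−1.93), Eda2r (−1.75), Plk2 (−0.92) and Polk (−0.59) lower and Notch1 (0.50) and Ei24 (0.34) higher. Eda2r was low, with a mean of 1.7 CPM (SD 1.77) in WT control mice. Among mice given Pio, Cdkn1a was 19.1 to 32.8 CPM in WT Pio and 33.4 to 61.0 CPM in WT HFD-Pio mice, without overlap (exact permutation p 0.00794, two-sided). The difference was narrow, 0.57 on the log2 scale (SE 0.55), and its adjusted p in edgeR was 0.695. Gadd45b was 0.733 to 1.86 CPM in WT Pio and 1.76 to 4.89 CPM in WT HFD-Pio mice, a log2 difference of 1.34 (SE 0.65). By edgeR 0 members were called with HFD in mice given Pio, against 1.22% of all genes, 1 had an unadjusted p under 0.05, against 14.2% of all genes, and 0 were called without mouse 13, against 8.68%. DESeq2 and limma called 0. The 1 member without overlap, Cdkn1a, stands against 6.49% of all genes.

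In KO mice on HFD no member was called for Pio. Bbc3 was 7.48, 9.80, 10.4, 11.3 and 12.8 CPM in KO HFD and 5.49, 12.3, 15.3, 15.5 and 17.6 CPM in KO HFD-Pio mice, where mouse 20 was lowest. Mouse 20 was also the highest of its group for 7 of the 10 genes, among them Gadd45b with 13.3 CPM against 0.648 to 1.49, Gadd45a with 15.2 against 2.18 to 4.73 and Trp53inp1 with 438 against 140 to 184 CPM. By edgeR 0 members were called, against 0.0155% of all genes, and 0 without mouse 13, against 0%. None had an unadjusted p under 0.05, against 1.04% of all genes, DESeq2 and limma also called 0, and groups did not overlap for 0 members, against 0.610% of all genes.

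For HFD without Pio in KO mice, Sesn1 was 10.2, 17.5, 18.1, 18.7 and 19.9 CPM in KO HFD mice, where mouse 9 was the low animal, against 10.4 to 12.7 CPM in KO control mice. Its log2 difference of 0.60 (SE 0.20) had an adjusted p of 0.502 in edgeR and 0.000221 in limma with sample weights, with edgeR's reaching 0.928 over the other settings. Bbc3 gave 0.60 (SE 0.44), its groups overlapping. By edgeR 0 members were called, against 0.185% of all genes, 1 had an unadjusted p under 0.05, against 4.60% of all genes, DESeq2 called 0 and limma 1. Without mouse 13 edgeR called 0 against 0.386%. Groups did not overlap for 0 members, against 3.04% of all genes.

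With Pio, the effect of HFD in KO mice takes in the KO Pio mice and mouse 13, and its values are a description. Of the members 3 passed the adjusted threshold, Bbc3, Bax (−0.69, SE 0.20) and Ccng1 (−0.55, SE 0.16), all lower with HFD, against 4.96% of all genes. Without mouse 13 the count was 0, against 0.0927%, with 3 at an unadjusted p under 0.05 in edgeR, against 5.32% of all genes, and it was also 0 without any 1 of the 5 KO HFD-Pio mice. Groups did not overlap for 0 members, against 2.43% of all genes. Cdkn1a was 21.3 to 92.8 CPM in KO Pio and 7.27, 8.70, 9.03, 25.7 and 34.6 CPM in KO HFD-Pio mice. The log2 difference was −1.31 (SE 0.55), and −0.80 without KO Pio mouse 12.

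**Figure D3:**
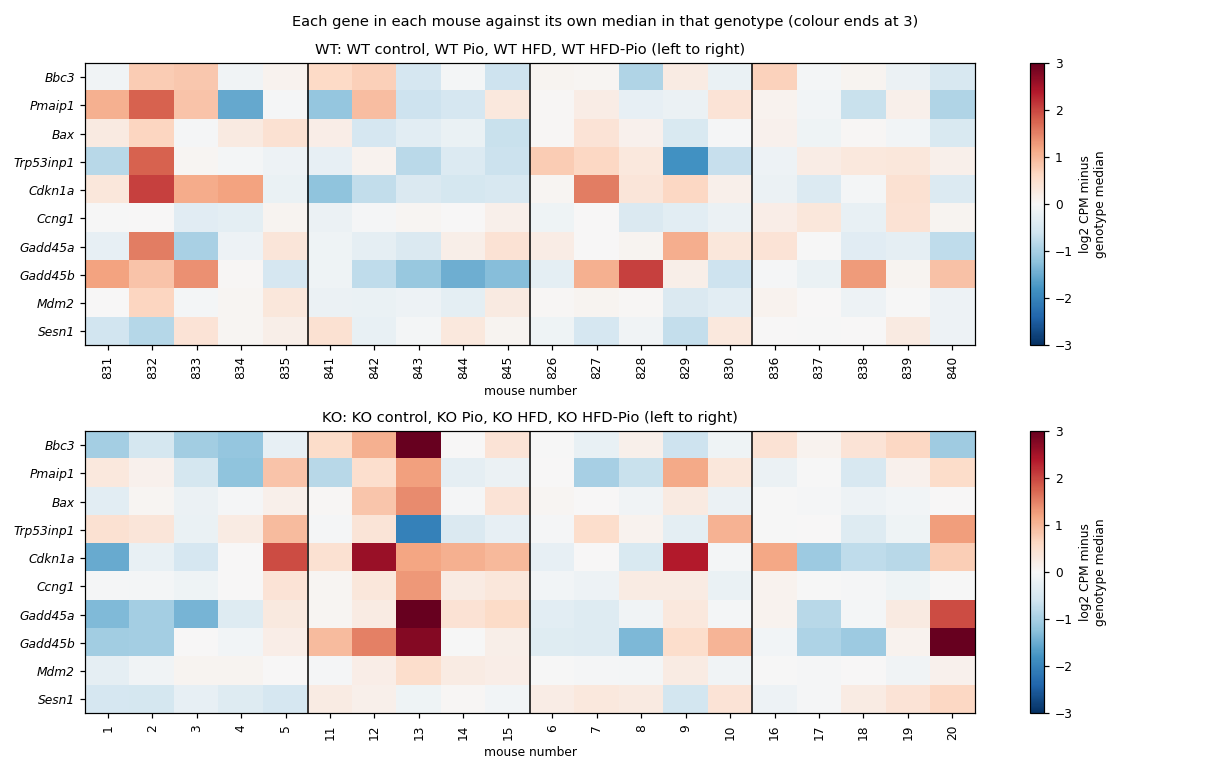
Each of the 10 genes (rows) in each mouse (columns, by group), coloured by log2 CPM minus the median of the gene in that genotype, for WT (top) and KO mice (bottom). Single mice stand out across several genes, chiefly WT control mouse 832, KO control mouse 5, KO Pio mouse 13, KO HFD mouse 9 and KO HFD-Pio mouse 20.

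Within a group 1 mouse often held the highest value of many members, which is a description and was not tested. It was mouse 5 for 8 of the 10 genes in KO control, mouse 13 for 7 in KO Pio, mouse 20 for 7 in KO HFD-Pio, mouse 9 for 6 in KO HFD and mouse 832 for 6 in WT control mice. Mouse 9 was also the lowest of its group for 3 members, and mouse 13 for 2. Of the 42 other p53 targets, mouse 5 was highest for 20, mouse 13 for 23, mouse 20 for 12, mouse 9 for 18 and mouse 832 for 21. The same mice were the lowest of their groups for 6, 12, 10, 16 and 13 of these targets, in that order. KO HFD-Pio mouse 16 was also highest for 12. In WT Pio, WT HFD and WT HFD-Pio no mouse held the highest value of more than 5 members. The animals differed in what accompanied their high values. KO HFD mouse 9, with 79.7 CPM of Cdkn1a against 11.3 to 15.4 CPM in its group, had 284 CPM of summed neutrophil markers and 792 CPM of macrophage markers, the highest of all groups. Its hepatocyte markers, at 76200 CPM, were the lowest of its group, whose median was 103000 CPM, and it held the highest value of its group for 16 of 18 cell division genes. KO HFD-Pio mouse 20 had 28.5 CPM of neutrophil markers and 105000 CPM of hepatocyte markers, the latter at its group's median. KO control mouse 5 had 106000 CPM of hepatocyte markers, within the range of its group. The part of cell composition in these values was not tested.

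**Figure D4:**
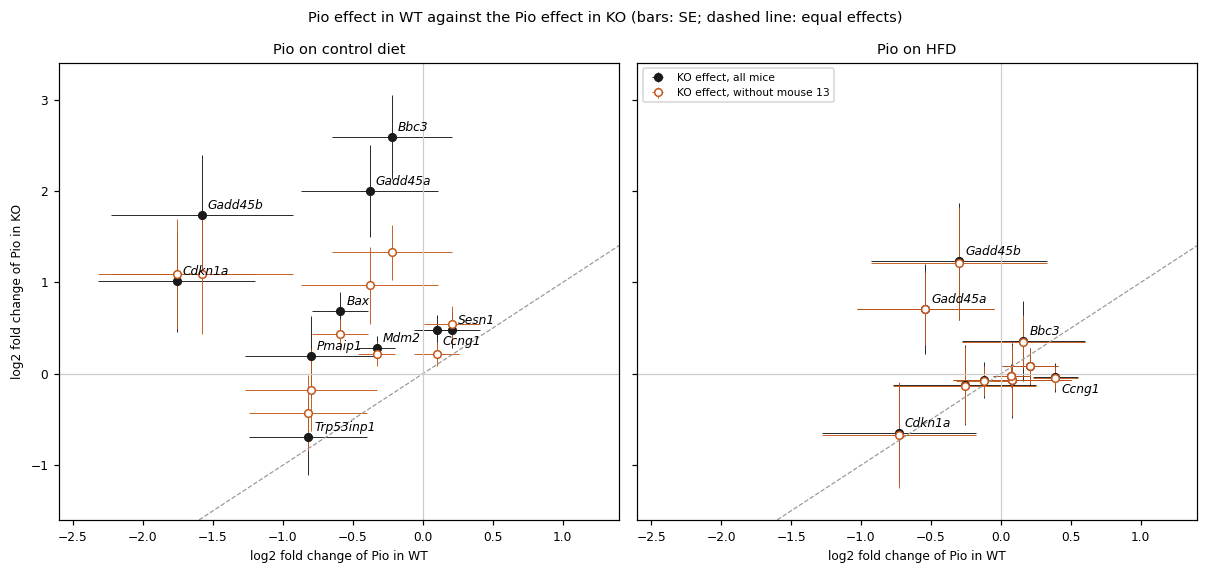
Log2 fold change of Pio in WT (x axis) against that in KO mice (y axis) for the 10 genes on control diet (left) and HFD (right), bars giving SE, with KO values from all mice (black) and without mouse 13 (open orange); on HFD 5 genes are named. On control diet every gene lies above the dashed line of equal effects, and on HFD the genes lie around it.

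The Pio effect was then compared between the genotypes on each diet. On control diet the effect in KO minus that in WT was above 0 for all 10 genes, with a median of 1.14 against 0.06 over all genes tested. It was 2.81 (SE 0.63) for Bbc3, 3.32 (SE 0.93) for Gadd45b, 2.77 (SE 0.78) for Cdkn1a, 2.38 (SE 0.70) for Gadd45a, 1.29 (SE 0.28) for Bax and 0.60 (SE 0.19) for Mdm2, and these 6 passed the adjusted threshold, against 7.87% of all genes. For Cdkn1a the difference came from both sides, with lower values in WT Pio mice and a higher mean in KO Pio mice. Without mouse 13 all 10 stayed above 0 and 3 passed it, Cdkn1a at 2.84 (SE 0.84), Bbc3 at 1.54 (SE 0.42) and Bax at 1.02 (SE 0.24), against 5.70% of all genes, with a median of 0.82. The count was 3 without WT control mouse 832 or KO control mouse 3, and 2 without KO control mouse 1. These values share the KO Pio mice with the contrast that chose the set and are a description.

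On HFD the same difference of effects was called for 0 of the 10 members by edgeR, against 0.0927% of all genes. None had an unadjusted p under 0.05, against 5.93% of all genes, and DESeq2 and limma called 0. The median was 0.07, and the values ran from −0.43 (SE 0.23) for Ccng1 to 1.53 (SE 0.90) for Gadd45b. That of Bbc3 was 0.20 (SE 0.62) and that of Cdkn1a 0.08 (SE 0.77).

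**Figure D5:**
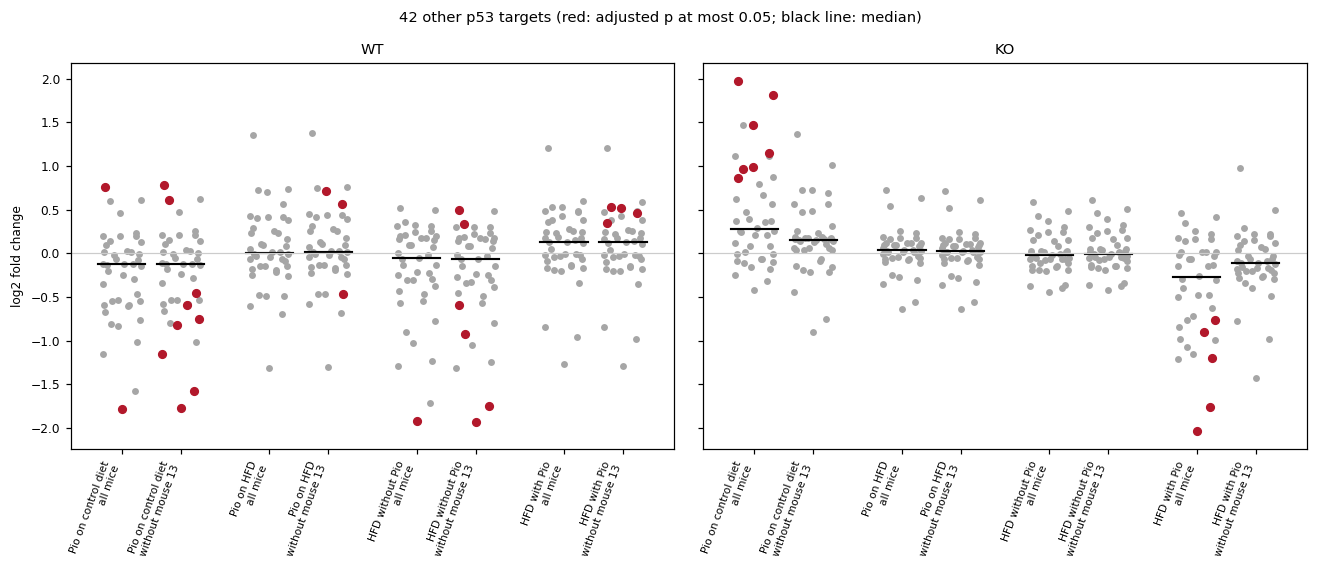
Log2 fold change of each of the 42 other p53 targets for 4 comparisons in WT (left) and KO mice (right), from all mice and without mouse 13, with called genes in red and the median as a black line. In KO mice the 7 genes called for Pio on control diet and the 5 called for HFD with Pio become 0 and 0 without mouse 13. The share of all genes called goes from 9.01% to 0.510% and from 4.96% to 0.0927%.

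In KO mice the calls among the other p53 targets were lost without mouse 13, as were most calls over all genes. For Pio on control diet 7 of 42, or 16.7%, were called, all higher, against the 9.01% given above. The 3 with the highest values were Gtse1, which acts on p53 in the G2 phase (1.98, SE 0.49), Phlda3, an AKT inhibitor (1.81, SE 0.54), Tob1, an antiproliferative protein (1.47, SE 0.32). Without mouse 13 the count was 0, against 0.510% of all genes. For HFD with Pio 5, or 11.9%, were called, all lower, against the 4.96% of all genes, with Phlda3 at −2.04 (SE 0.54) and Gtse1 at −1.76 (SE 0.48). Without mouse 13 it was 0, against 0.0927% of all genes. Cell division genes moved in the same comparisons, with 4 of 18, or 22.2%, higher for Pio on control diet, against the same 9.01%. Among them was Cdc20, an activator of the anaphase-promoting complex, at 2.68 (SE 0.73). Again 0 were called without mouse 13, against the same 0.510%. Of the BCL2 family 2 of 14, or 14.3%, were higher, Bik at 1.18 (SE 0.35) and Bok at 1.02 (SE 0.28). Here too 0 were called without mouse 13, against that 0.510%.

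The gene for p53 itself was called in no comparison. Trp53 RNA was 18.7 to 22.7 CPM in KO control, 20.3 to 26.0 in KO Pio, 19.6 to 25.0 in KO HFD and 18.3 to 23.6 CPM in KO HFD-Pio mice. Mouse 13 held 20.3 CPM, the lowest of its group. In WT mice it was 24.3 to 52.8 CPM in WT control and 18.9 to 37.7 CPM in WT Pio mice, a log2 difference of −0.56 (SE 0.20, edgeR adjusted p 0.117). p53 is regulated chiefly through the stability of the protein, which RNA counts do not show. Of 13 tested p53 regulators, 1 was called for Pio on control diet in KO mice, or 7.69%, below the 9.01% of all genes. It was the acetyltransferase gene Kat5, at 0.41 (SE 0.13), and 0 were called without mouse 13, against 0.510% of all genes. Mdm4, which codes for an MDM2 partner that inhibits p53, was 7.03 CPM in mouse 13 against 44.9 to 51.7 CPM in the other KO Pio mice. Ppm1d, another of these regulators, went the other way, with 15.8 CPM against 5.40 to 6.75 CPM. Mouse 13 was the highest of its group for 5 of the 13 regulators and the lowest for 7.

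Likeness to Bbc3 across mice was computed as Pearson's r of log2 CPM and is given as a description, since mice of 1 group share their treatment. Over the 20 WT mice the 5 most alike genes were Nudt18 (r = 0.82, Spearman's rho = 0.84), Zfyve27 (0.76), Sdc1 (0.72), Hmcn2 (0.72) and Fam65b (0.69). Over the 19 KO mice without mouse 13 they were Mum1 (r = 0.86, rho = 0.83), Cchcr1 (0.85), Gpr157 (0.85), Zfp503 (0.84) and Plet1 (0.84). No other member was among them. The r of the other 9 members with Bbc3 was −0.07 to 0.40 in WT and −0.34 to 0.46 in KO mice without mouse 13, where Trp53 had 0.54. With mouse 13 Bax had an r of 0.80 in KO mice, and 0.46 without it.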

How the data were processed

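Libraries were made by the authors by poly-A selection of liver RNA from 40 mice. Alignment by the authors used STAR 2.0.4b against GRCm38, and featureCounts 1.4.5 of Subread assigned reads with 1 alignment and 1 gene. The deposited values are whole-number counts without normalization, 1 column per mouse and 1 table per genotype. Every column was matched to its sample by mouse number, with 0 left over. Repeated lines of a gene, 598 for KO and 574 for WT, held equal values in every case and were reduced to 1. Tables were joined by Ensembl identifier (40594 genes), 355 rRNA genes were removed, and the 12942 genes that reached 1 CPM in 5 or more mice were kept. The authors' binding data were not analysed here.

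One model with a mean per group was fitted with edgeR 4.0.16 in R 4.3.3 (TMM factors, robust quasi-likelihood F test). P-values were adjusted by Benjamini-Hochberg over all 12942 genes and values of 0.05 or less count as called. Single genes were also compared between groups by a two-sided exact permutation test of mean log2 CPM, which went through all regroupings of the mice (Python 3.11.15). CPM use TMM library sizes, and fold changes are log2 with their SE. Two-group comparisons, differences of the Pio effect between diets and between genotypes made 12 comparisons. The alternatives were RLE size factors, DESeq2 1.42.0, limma 3.58.1 with sample weights (the method of the authors), no filter, each genotype fitted alone, each mouse left out in turn, and, chosen after seeing the data, mice 13 and 832 left out together. The edgeR, limma and DESeq2 steps were tested on simulated data before use. The deepest library had 49857017 and the shallowest 15788242 counts, which limits genes of low count most, such as Pmaip1.

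Named were the 10 members in every comparison, Trp53 and Pparg, from each further list the called genes with up to 3 highest and 3 lowest changes, and the 5 genes most like Bbc3. Values of Mdm4, Ppm1d, Arntl and Polk, chosen after their values were seen, are also given. The members and lists were chosen with earlier results of these data known. Cell type markers were summed per mouse.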

Additional observations from a re-analysis of the deposited data

Results flagged for a closer look

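Distance was judged by Dixon's ratio on log2 values, the gap from a mouse to its nearest neighbour over the range of the 5 mice. Of the 80 sets of 5 mice (10 genes in 8 groups), 8 held a mouse that by this ratio lay far from the other 4. In KO Pio mouse 13 this held for Ccng1 (95.4 CPM) and Gadd45a (31.3 CPM). In KO HFD-Pio mouse 20 it held for Trp53inp1 (438 CPM) and Gadd45b (13.3 CPM), and in KO HFD mouse 9 for Cdkn1a (79.7 CPM) and, as the low animal, Sesn1 (10.2 CPM). The others were Ccng1 in KO control mouse 5 (51.4 CPM) and Mdm2 in WT Pio mouse 845 (43.8 CPM). Bbc3 in KO Pio mouse 13 (138 CPM) and Trp53inp1 in WT control mouse 832 (218 CPM) were not among the 8. The ratio falls when the other mice of a group are spread, so this does not mean that they lay close to their groups. For independent sets chance gives about 1 in 20, or 4. These sets are not independent, because the 10 genes share the same 5 mice in each group. They also take in Bbc3 and the KO Pio mice, through which the genes were chosen. The 8 are therefore a description, and no excess over chance is read from them.

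The difference of the Pio effect on control diet between the genotypes passed the adjusted threshold of edgeR for 6 genes. It uses the KO Pio mice, through which the set was chosen, so these values are a description and not evidence about the set. On the log2 scale the effect in KO minus that in WT was 2.81 for Bbc3, 1.29 for Bax, 2.77 for Cdkn1a, 2.38 for Gadd45a, 3.32 for Gadd45b and 0.60 for Mdm2. Without mouse 13 the values of Gadd45a, Gadd45b and Mdm2 no longer passed it.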

How the results depend on the processing

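Of the 80 differences of the 10 members in the 8 two-group comparisons, 49 kept their sign under all 46 settings and 31 changed it under 1 or more. None of these 31 was called under any setting. Without mouse 13, Pmaip1 for Pio on control diet in KO mice went from 0.19 to −0.18, and for HFD with Pio Gadd45a went from −0.76 to 0.28, Gadd45b from −0.12 to 0.54 and Pmaip1 from −0.22 to 0.15. Gadd45b for Pio on HFD in KO mice went from 1.23 to −0.52 without mouse 20. For Pio on control diet in WT mice, where 0 members were called, DESeq2 called 1, limma with sample weights 3, genotypes fitted alone 3, and the fit without mice 13 and 832 gave 1. For Pio on HFD in WT mice that last fit called 1 member. For Pio on control diet in KO mice the 3 members became 5 by DESeq2, 4 with RLE size factors, which added Ccng1, 0 with the genotypes fitted alone and 1 without mice 13 and 832. By limma with sample weights, the method of the authors, Bax no longer passed, while Cdkn1a and Sesn1 did. For HFD without Pio in KO mice limma called 1. For HFD with Pio in KO mice the 3 members became 0 by limma, without a filter, with the genotypes fitted alone and without mice 13 and 832. For the genotype difference on control diet the 6 became 2 without a filter and 2 without mice 13 and 832, and 4 by limma, which lost Gadd45a and Gadd45b. Among the other p53 targets, the 2 called for Pio on control diet in WT mice became 5 by DESeq2, 5 by limma, 0 without a filter, 5 with the genotypes fitted alone and 7 without mice 13 and 832. For Pio on HFD in WT mice 0 became 3 by limma and 5 without these mice, for HFD without Pio 1 became 2 by DESeq2, 0 without a filter, 0 with genotypes alone and 2 without these mice, and for HFD with Pio 0 became 10 by limma and 4 without these mice. In KO mice the 7 for Pio on control diet became 0 with genotypes alone and 0 without these mice, limma called 1 for HFD without Pio, and the 5 for HFD with Pio became 0 by limma, without a filter, with genotypes alone and without these mice. The cause of these changes was not tested.

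Leaving out 1 of the 40 mice at a time, the members called ran from 0 to 2 for Pio on control diet and from 0 to 1 for Pio on HFD in WT mice, from 1 to 5 for Pio on control diet and from 0 to 3 for HFD with Pio in KO mice, and from 2 to 6 for the genotype difference on control diet. Other p53 targets ran from 0 to 9 (Pio on control diet), 0 to 3 (Pio on HFD), 0 to 6 (HFD) and 0 to 4 (HFD with Pio) in WT, and from 0 to 11 (Pio on control diet) and 0 to 10 (HFD with Pio) in KO mice. No paired analysis was possible because each mouse has its own number and groups share none. Depth limits genes of low count, above all Pmaip1.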

Other observations

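Of 16 genes of the circadian clock and the glucocorticoid response, 7, or 43.8%, were called in WT mice given Pio on control diet, against 3.91% of all genes. Of them 6 are clock genes, and Sgk1 was the 1 gene of the glucocorticoid response. On the log2 scale the clock gene Npas2 fell by 2.10 (SE 0.47) and Cry1, a clock repressor, by 1.54 (SE 0.30). Sgk1, a kinase that glucocorticoids induce, fell by 1.25 (SE 0.26), and Arntl, which codes for BMAL1, by 1.23 (SE 0.34). All 4 passed edgeR's adjusted threshold. Ciart, Per3 and Nr1d2, clock repressors as well, rose by 2.01 (SE 0.48), 1.67 (SE 0.47) and 0.63 (SE 0.18), also past that threshold. Without WT control mouse 832 the count was 4, with Npas2, Cry1, Sgk1 and Ciart, against 3.18% of all genes. The hour at which tissue was taken is not given in the sources used here.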
